A study of Mus musculus with 13 samples.

Results

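Brain cells sorted on Pdgfra, the receptor for platelet-derived growth factor that marks oligodendrocyte precursor cells (OPCs), were compared between the young adult and the late embryonic mouse. The comparison took the 3 libraries whose titles give postnatal day 80 (P80) and the 3 whose titles give embryonic day 16 (E16), chosen by title alone, out of 13 libraries at 4 ages. All 6 came from brains of wild-type C57BL/6 mice, and bulk libraries were made from total RNA of what the beads retained. Cells were enriched with magnetic beads carrying an antibody to Pdgfra at both ages, whereas beads that remove myelin debris were used before this step at P80 and not at E16, so that age and the debris step cannot be told apart. Per the labels, P80 replicate 1 was 80 days old and replicates 2 and 3 were 81 days old. The series asks how OPCs change with age, and this comparison sets its young adult libraries directly against its embryonic ones.

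OPCs are glial progenitors that arise in the ventral and later the dorsal parts of the embryonic neural tube, spread through the brain, and give rise to the oligodendrocytes that wrap axons in myelin. In the embryo they divide rapidly beside newborn neurons and radial glia, and in the adult they persist as a slowly dividing population that contacts blood vessels and receives synaptic input. The receptor used for sorting is not exclusive to OPCs, since fibroblast-like cells of the meninges and vessels carry it too. A bead sort of this kind enriches a cell type and seldom isolates it, and in a bulk library fewer cells of a type and less RNA of that type per cell cannot be told apart.

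The E16 libraries held 12581355 to 14866649 counts assigned to genes and the P80 libraries 8809017 to 14104843, with P80 replicate 2 the shallowest. Levels are given as CPM, in which TMM-scaled library totals make counts comparable, in the order of replicates 1, 2 and 3. Transcripts of the mitochondrial genome took 1.52% to 3.54% of counts at E16 and 12.8% to 23.5% at P80. The first principal component of the 1000 most variable genes held 93.9% of their variance and placed the E16 libraries at -92.66 to -87.07 and the P80 libraries at 81.36 to 93.65. On the second, which held 2.67%, the P80 libraries lay at -3.83, 27.73 and -23.98. No pair of libraries of the same age was identical or agreed within sampling noise. The labels do not say in each case whether a library is 1 animal. A p-value here sets the age difference against the spread between libraries of an age, estimated with information shared across genes. That spread is not known to be the spread between animals. Where an age had no count of a gene, its limit was set at 3 counts over the 3 libraries, 0.0663 CPM at E16 and 0.0869 CPM at P80, which covers counting error only.

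Of 18464 genes tested with edgeR's quasi-likelihood test, 9388 (50.8%) were called, meaning an adjusted p under 0.05. Of these, 4862 genes (26.3% of those tested) were higher at P80 and 4526 (24.5%) were lower. Changes are given as log2 of P80 over E16 with the standard error (SE), so that positive values are higher at P80. The median log2 change of the genes tested was 0.07, and 3079 genes rose and 1641 fell by at least 2 on this scale. The counts of lists below are read beside those 3 shares. In 5835 of the genes tested every P80 library lay above every E16 library, and in 5800 every P80 library lay below. Of the called genes, 4753 of the 4862 higher and 4510 of the 4526 lower had no overlap between the ages. Lack of overlap in a called gene was therefore usual.

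Marker genes of cell types were examined first, because their transcript levels bear on which cell types contributed RNA at each age. Of the 14 marker lists, immature neuron genes had the highest summed CPM in every E16 library and endothelial genes in every P80 library. Genes of OPC identity were present at both ages at a lower summed level. The 22 immature neuron genes summed to 17466, 14233 and 14128 CPM at E16 and 602, 587 and 505 CPM at P80, and 21 of the 22 fell while none rose. The 20 endothelial genes summed to 101, 127 and 106 CPM at E16 and 9553, 10318 and 8167 CPM at P80, and all 20 rose. OPC identity genes, 22 listed, summed to 1442, 1275 and 1145 CPM at E16 and 498, 650 and 538 CPM at P80. Taken per kb of exon, to allow levels of different genes to be set beside each other, the means were 153 CPM per kb for OPC identity genes and 2745 for immature neuron genes at E16. At P80 they were 93.4 for OPC identity genes and 1929 for endothelial genes. Short and abundant transcripts lift 2 other lists on the scale per kb, the erythroid list with its globins (4468 at E16 and 1708 at P80) and the ependymal and choroid plexus list with Ttr (99.2 and 2667). Pdgfra and other OPC genes were counted in every library, but the marker lists with the highest levels at both ages were those of other cell types. The samples are therefore called Pdgfra-sorted cells here.

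**Figure D1:**
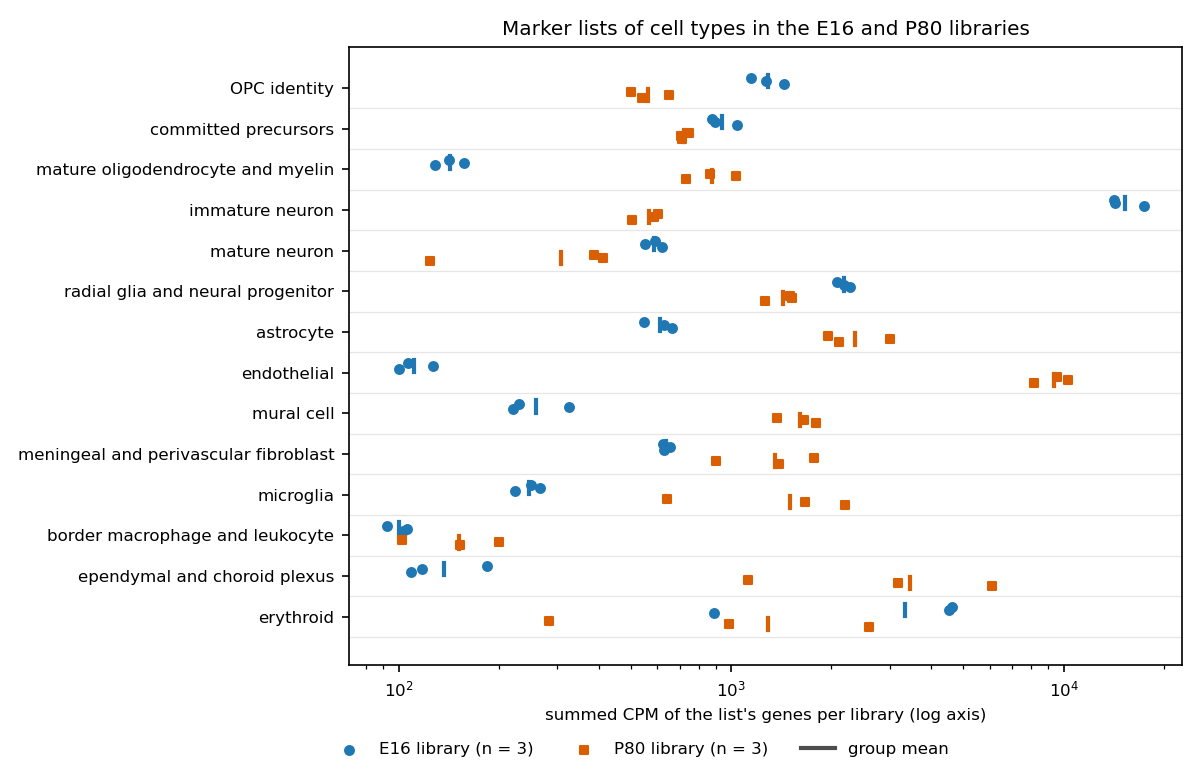
Summed CPM of the marker genes of 14 cell types in each library (points, log axis), with the mean of each age (line). The E16 and P80 points lie apart for OPC, immature neuron and endothelial genes, while those of border macrophages and erythroid cells overlap.

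Other cell types also differed. Microglial genes summed to 224, 266 and 249.9 CPM at E16 and 643, 1665 and 2199.9 CPM at P80, with P80 replicate 1 lowest of the P80 libraries, and 18 of 20 rose while none fell. Cx3cr1, the fractalkine receptor of microglia, stood at 11.6, 26.3 and 16.5 CPM at E16 and 63.5, 183 and 222 CPM at P80, and Tmem119, a surface protein specific to them, at 1.75, 1.84 and 1.16 CPM at E16 and 24.3, 36.2 and 49.7 CPM at P80. Neither gene overlapped between the ages (log2 3.10 ± 0.46 and 4.53 ± 0.40, adjusted p = 0.000405 and 1.19e-05). Astrocyte genes summed to 662, 627 and 546 CPM at E16 and 1952, 2999 and 2110.1 CPM at P80, and 17 of 18 rose. Aqp4, the water channel of astrocyte endfeet, stood at 1.45, 0.953 and 1.16 CPM at E16 and 112, 82.4 and 60.1 CPM at P80 and rose by 6.16 ± 0.34 (adjusted p = 8.14e-07). Gfap, the astrocyte intermediate filament, stood at 1.75, 0.508 and 0.245 CPM at E16 and 201, 91.8 and 135 CPM at P80 (log2 7.47 ± 0.59, and 8.51 without E16 replicate 1). Both genes were low in every embryonic library and far higher in every adult library. Sox9, a transcription factor shared by glial progenitors and astrocytes, was the astrocyte gene that fell (log2 -0.58 ± 0.17, adjusted p = 0.0164), and this call was lost when all 13 libraries entered the fit.

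Mural cell genes summed to 221 to 325 CPM at E16 and 1372 to 1799 CPM at P80, and 12 of 15 rose. Myh11, the smooth muscle myosin of arteries, was among them at 3.88, 3.75 and 3 CPM at E16 and 412, 553 and 593 CPM at P80. Ependymal and choroid plexus genes summed to 109, 118 and 184 CPM at E16 and 1124, 3171 and 6089 CPM at P80, and 12 of 13 tested rose. The choroid plexus carrier of thyroid hormone, Ttr, made most of that sum at 82.6, 88.4 and 149 CPM at E16 and 850.4, 2899 and 5499 CPM at P80, with P80 replicate 1 lowest and replicate 3 highest (log2 4.85 ± 0.63, adjusted p = 0.000155, and 4.13 without P80 replicate 3). Fibroblast genes of the meninges and vessels summed to 627, 654 and 625 CPM at E16 and 1777, 901 and 1391 CPM at P80. Of these 15 genes 5 rose and 2 fell, and 9 rose without P80 replicate 2. Mgp, a matrix protein, stood at 0.152, 0.508 and 1.34 CPM at E16 and 605, 396 and 332 CPM at P80 (log2 9.30 ± 0.54, and 10.27 without E16 replicate 3), whereas the fibrillar collagen genes Col1a1 and Col3a1 fell (log2 -0.68 ± 0.20 and -1.22 ± 0.20). The call of Col1a1 was lost with all 13 libraries in the fit. Globin and other erythroid genes summed to 889.6, 4525 and 4603 CPM at E16 and 283, 985 and 2599 CPM at P80 and overlapped between the ages. Of 9 tested, 3 fell, while 1 fell in limma-voom and 9 fell without P80 replicate 3. The embryonic globin Hba-x stood at 17.9, 52.2 and 48.9 CPM at E16 and 0, 0 and 0 CPM at P80 and was at least 456-fold lower at P80. Adult alpha globin, Hba-a1, stood at 319, 1612 and 1552 CPM at E16 and 94.8, 319 and 939.6 CPM at P80 without a call, and was called lower without P80 replicate 3 (log2 -2.50).

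Most of these marker sums differed between the ages, and the results below were not separated from them. Their part in each result was not tested.

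Genes of OPC identity went in different directions. Of the 20 tested, 7 fell, 2 rose and 11 had no call, with a median log2 change of -0.56. Pdgfra (chr5:75152292-75198215, plus strand, GRCm38) stood at 40.5, 37.4 and 26 CPM at E16 and 45, 19.2 and 59.1 CPM at P80, so the ages overlapped and the target of the sort had no call (log2 0.25 ± 0.37, adjusted p = 0.596). Its level in P80 replicate 2 was the lowest and that in P80 replicate 3 the highest of the 6 libraries. Olig1, Olig2 and Sox10, the transcription factors that define the oligodendrocyte lineage, were all low. Olig1 stood at 8.06, 9.98 and 6.72 CPM at E16 and 5.31, 10.5 and 6.08 CPM at P80, and the 2 ages overlapped. Olig2 stood at 4.56, 7.88 and 5.99 CPM at E16 and 5.73, 7.88 and 1.31 CPM at P80, with P80 replicate 3 lowest, and again without a call (adjusted p = 0.695). Sox10 stood at 1.67, 4.38 and 4.71 CPM at E16 and 5.03, 7.74 and 6.01 CPM at P80 and every P80 value lay above every E16 value, but the difference did not pass the test (log2 0.79 ± 0.53, adjusted p = 0.241).

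The genes of this list that rose encode proteoglycans of the OPC surface and its matrix. Cspg4, known as NG2 and the classic antigen of adult OPCs, stood at 10.1, 21.4 and 11.2 CPM at E16 and 65.2, 90.4 and 128 CPM at P80 (chr9:56865033-56899870, plus strand, GRCm38). Every adult library lay above the embryonic ones, and the log2 change was 2.73 ± 0.35 (adjusted p = 0.000164). Bcan, the matrix proteoglycan brevican, stood at 34, 22.7 and 28.5 CPM at E16 and 152, 268 and 141 CPM at P80 and rose by 2.72 ± 0.28 (adjusted p = 4.02e-05). Mural cells carry Cspg4 too, and astrocytes make Bcan.

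The 7 OPC identity genes that fell included 5 of the 6 with the highest levels per kb of the list. Ptprz1, a receptor phosphatase that binds pleiotrophin, stood at 359.7, 336 and 295 CPM at E16 and 74.6, 110.2 and 85.1 CPM at P80 (log2 -1.88 ± 0.19, adjusted p = 3.45e-05). Vcan, the proteoglycan versican, stood at 294, 249 and 222 CPM at E16 and 14.9, 24.6 and 11.2 CPM at P80 (log2 -3.93 ± 0.30, adjusted p = 5.27e-06). Sox5 and Sox6, transcription factors that hold OPCs in the progenitor state and act in newborn neurons as well, fell together. Sox5 stood at 291, 244 and 214 CPM at E16 and 19.7, 22 and 24 CPM at P80 (log2 -3.51 ± 0.20, adjusted p = 8.28e-07). Sox6 stood at 113, 104 and 80.8 CPM at E16 and 15.9, 10.4 and 10 CPM at P80 (log2 -3.03 ± 0.26). Cacng4, an auxiliary subunit of AMPA receptors, stood at 172, 122 and 152 CPM at E16 and 19.3, 40 and 24.8 CPM at P80 (log2 -2.42 ± 0.28, adjusted p = 7.56e-05). In none of these genes did the ages overlap, as for 4510 of the 4526 genes called lower.

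**Figure D2:**
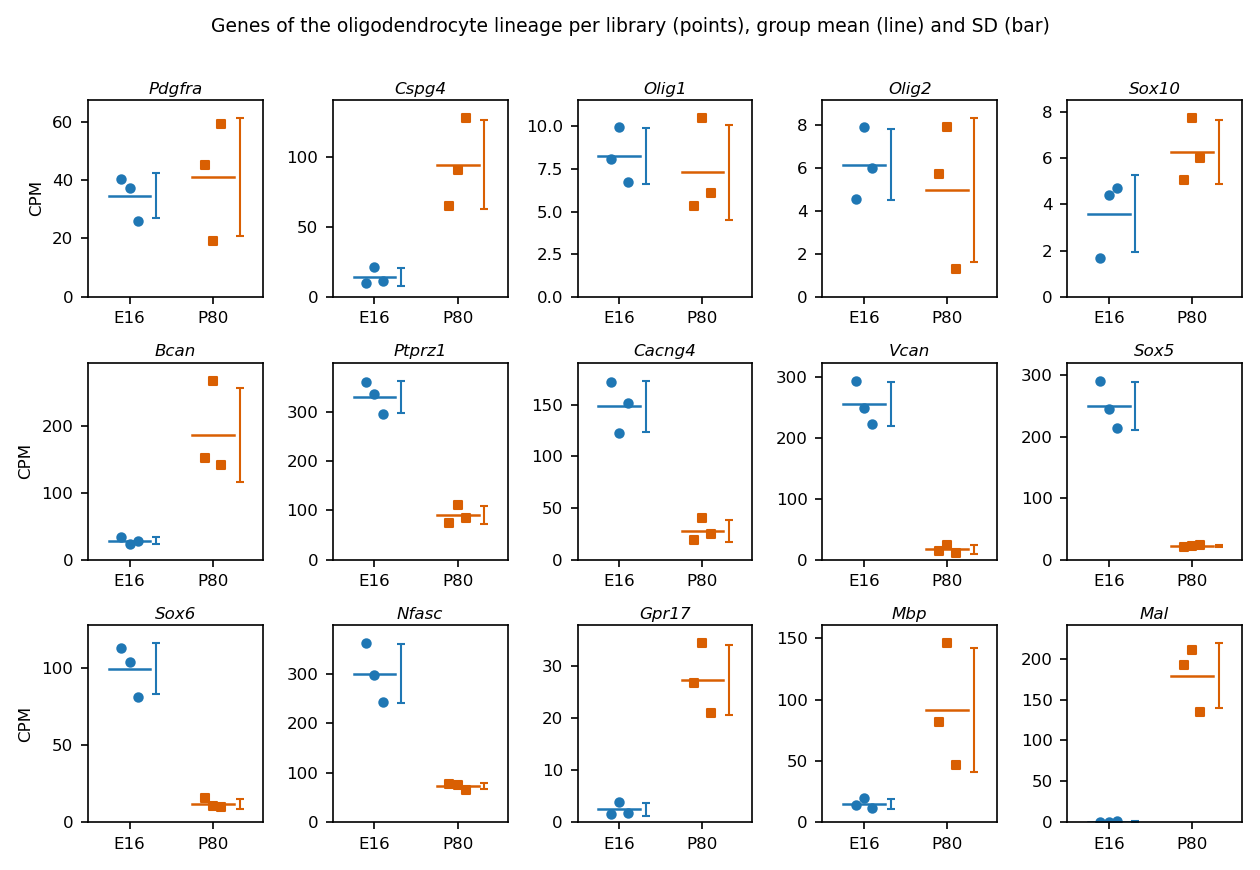
CPM of 15 genes of the oligodendrocyte lineage in each library (points; linear axes from 0, a different scale for each gene), with the mean (line) and SD (bar) of the 3 libraries of each age. Pdgfra, Olig1 and Olig2 overlap between the ages, Cspg4, Bcan, Gpr17, Mbp and Mal are higher at P80, and Vcan, Sox5, Sox6 and Nfasc are lower.

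Genes of committed oligodendrocyte precursors, the stage between the OPC and the myelinating cell, were split evenly. Of 15 tested 6 rose and 6 fell, with a median log2 change of 0.15. Gpr17, an orphan receptor that marks this stage, stood at 1.6, 3.94 and 1.9 CPM at E16 and 26.6, 34.3 and 20.9 CPM at P80, and every adult library lay above the embryonic ones (log2 3.45 ± 0.44, adjusted p = 0.000132). Itpr2, a calcium release channel of the endoplasmic reticulum, stood at 11.6, 13 and 9.23 CPM at E16 and 169, 138 and 163 CPM at P80 (log2 3.79 ± 0.21, adjusted p = 8.01e-07). Lims2, a focal adhesion protein, stood at 0.38, 1.14 and 1.1 CPM at E16 and 65.5, 97.5 and 63.6 CPM at P80 (log2 6.39 ± 0.41). Lims2 and Itpr2 are also expressed outside the lineage. In the other direction, Nfasc, the cell adhesion protein of axon initial segments and of glia, stood at 361, 297 and 242 CPM at E16 and 78.1, 76.3 and 65.9 CPM at P80 (log2 -2.03 ± 0.19), and Mycl, a Myc family factor, at 96.7, 84.6 and 83.3 CPM at E16 and 2.03, 5.25 and 2 CPM at P80 (log2 -4.90 ± 0.38).

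Most myelin genes were higher at P80. Of 20 tested among 28 listed, 14 rose and none fell, the median log2 change was 2.38, and the summed level was 128, 157 and 142 CPM at E16 and 861, 1038 and 734 CPM at P80. With all 13 libraries in the fit, 6 rose. DESeq2 and limma-voom each called 2 members lower, and 1 was lower with no low-count filter and without P80 replicate 1 or 2. Mbp, which encodes a main protein of the myelin sheath, stood at 14.1, 19.7 and 12 CPM at E16 and 81.8, 146 and 46.4 CPM at P80 (log2 2.58 ± 0.40, adjusted p = 0.000492). Its ages did not overlap, and the call was lost with all 13 libraries in the fit. Mal, a membrane raft protein of myelin that other cells also make, stood at 0.38, 0.254 and 1.53 CPM at E16 and 192, 211 and 135 CPM at P80 (log2 7.90 ± 0.52, and 9.09 without E16 replicate 3). Apod, an apolipoprotein shared with fibroblasts and mural cells, stood at 11.9, 14.9 and 9.9 CPM at E16 and 175, 100.2 and 121 CPM at P80 (log2 3.43 ± 0.27). Other sheath proteins were low in the adult libraries, as shown by Mag at 2.17, 0.415 and 2.93 CPM, Mog at 0.559, 0 and 0 CPM and Opalin at 0.0699, 0.138 and 0 CPM, 3 genes chosen after their values were seen. Mog had stood at 1.37, 1.78 and 2.26 CPM at E16 and had no call (adjusted p = 0.0598), but was called lower in DESeq2, in limma-voom and without P80 replicate 1. The myelin debris step was applied at P80 alone, and its part in these levels was not tested.

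Newborn neuron genes had the lowest median log2 change of the 14 marker lists. Dcx, the microtubule protein of migrating neurons, stood at 1131, 892 and 861 CPM at E16 and 6.99, 6.08 and 2.85 CPM at P80, 181-fold lower at P80 (log2 -7.51 ± 0.37, adjusted p = 4.64e-07). Sox11, a transcription factor of neurons as they leave the cell cycle, stood at 3066, 2568 and 2133 CPM at E16 and 6.99, 8.85 and 14.2 CPM at P80 (log2 -8.01 ± 0.36, adjusted p = 3.5e-07), and its relative Sox4 at 1473, 1217 and 1130 CPM at E16 and 37, 34.3 and 41.4 CPM at P80 (log2 -5.08 ± 0.21). Dpysl5, a growth cone protein, stood at 621, 473 and 442 CPM at E16 and 3.63, 4.56 and 2.46 CPM at P80 (log2 -7.20 ± 0.29). Nhlh1, a factor of just-born neurons, stood at 25.7, 19.7 and 25.6 CPM at E16 and had no count at P80, at least 272-fold lower. The median log2 change of the list was -5.48, and -6.18 without P80 replicate 1.

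Genes of mature neurons did not all fall. Their sum was 619, 549 and 591 CPM at E16 and 386, 411 and 124 CPM at P80, with P80 replicate 3 the lowest, and of 17 genes 8 fell and 3 rose. Slc17a6, the vesicular glutamate transporter of subcortical neurons, stood at 55.3, 40 and 46.1 CPM at E16 and 0.489, 0.277 and 3.08 CPM at P80 (log2 -5.11 ± 0.67, and -6.82 without P80 replicate 3). The GABA-synthesising enzymes Gad1 and Gad2 fell (log2 -2.94 ± 0.30 and -3.48 ± 0.54), and the change of Gad2 was -4.36 without P80 replicate 2. Thy1, a surface glycoprotein of mature neurons, rose by 2.61 ± 0.47. When any single E16 replicate was left out, 1 gene rose.

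Radial glia and neural progenitor genes mostly fell, 10 of 16 against 1 that rose, with a median log2 change of -3.20. Neurog2, the proneural factor of cortical glutamatergic progenitors, stood at 78.5, 78.3 and 70.5 CPM at E16 and 0.0699, 0.138 and 0 CPM at P80, with a log2 change of -10.13 ± 0.45, or -10.72 without P80 replicate 2 and -9.53 without P80 replicate 3. Insm1, a factor of intermediate progenitors, stood at 124, 90.3 and 92.4 CPM at E16 and 2.66, 4.01 and 3.77 CPM at P80 (log2 -4.89 ± 0.27). Msi1, an RNA-binding protein of neural stem cells, stood at 319, 277 and 265 CPM at E16 and 21.2, 24.9 and 27.7 CPM at P80 (log2 -3.54 ± 0.19). Hes5, the Notch effector of radial glia, stood at 66.6, 60.7 and 103 CPM at E16 and 4.89, 5.53 and 5.7 CPM at P80 (log2 -3.83 ± 0.28). Prom1, known as CD133, was the member that rose, at 36.9, 41.4 and 35 CPM at E16 and 211, 249.7 and 177 CPM at P80 (log2 2.49 ± 0.19). Nes and Vim, intermediate filaments of radial glia that endothelial and other cells also make, had no call (log2 0.20 ± 0.20 and 0.18 ± 0.19) and were chosen after their values were seen.

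Transcription factors that pattern the forebrain were largely features of the E16 libraries. All 12 dorsal forebrain factors fell, with a median log2 change of -4.60 and sums of 2429 to 2984 CPM at E16 and 147 to 254 CPM at P80. Bcl11b, a factor of deep-layer cortical and striatal neurons, stood at 567, 405 and 371 CPM at E16 and 12.4, 24.3 and 16.7 CPM at P80 (log2 -4.66 ± 0.30). Pou3f2 and Nr2f1, which act in cortical progenitors and neurons, fell (log2 -3.04 ± 0.24 and -2.40 ± 0.17).

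Of 13 ventral forebrain factors 11 fell and 2 rose, with a median of -4.72 and -4.70 with genes at 0 placed at their bound. Dlx1 and Dlx2, homeobox factors of interneuron progenitors, stood at 123, 127 and 107 CPM at E16 and 2.52, 0.277 and 1.15 CPM at P80 and at 54, 58.8 and 36.6 CPM at E16 and 0.909, 1.24 and 1.31 CPM at P80. Their log2 changes were -6.36 ± 0.47, or -7.22 without P80 replicate 1, and -5.43 ± 0.35. Nkx2-1, which marks the medial ganglionic eminence and the hypothalamus, went the other way at 24.2, 24.8 and 15.8 CPM at E16 and 30.3, 134 and 64.3 CPM at P80, with P80 replicate 2 highest (log2 1.81 ± 0.46, adjusted p = 0.00876). Dlx6 did so too (log2 1.53 ± 0.46, adjusted p = 0.0184), although its ages overlapped. The calls of both were lost in limma-voom, with all 13 libraries and without E16 replicate 3, and that of Dlx6 also without E16 replicate 1 or P80 replicate 2. Without P80 replicate 2 the log2 changes were 1.11 for Nkx2-1 and 0.93 for Dlx6.

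Factors of the midbrain, hindbrain and spinal cord were sparse, with 15 of 28 passing the low-count filter, 6 lower and 2 higher. Pax7, a midbrain and dorsal neural tube factor, stood at 17.1, 10.9 and 15.6 CPM at E16 and 0.21, 0.138 and 0.077 CPM at P80 (log2 -6.57 ± 0.58). Barhl1, a homeobox factor of midbrain and hindbrain neurons, stood at 33.2, 13.5 and 27.1 CPM at E16 and 0.14, 0.138 and 0 CPM at P80 (log2 -7.99 ± 0.71, -8.70 without P80 replicate 1 and -7.38 without P80 replicate 3). Sox14, a factor of ventral brain interneurons, had no count at P80, at least 135-fold lower than its 14.5, 6.35 and 14.4 CPM at E16. Gata2, which acts in midbrain and spinal interneurons and also in endothelial and blood cells, rose at 4.64, 4.7 and 6.79 CPM at E16 and 192, 208 and 221 CPM at P80 (log2 5.26 ± 0.23, adjusted p = 2.74e-07).

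Genes of cell division fell as a group. All 22 mitosis genes and all 26 DNA replication genes were lower at P80, where 24.5% of all genes tested were. The mitosis genes summed to 1879, 1767 and 1611 CPM at E16 and 50.8, 30.6 and 39.9 CPM at P80, and the median log2 change was -5.39, or -6.10 without P80 replicate 1. Mki67, the Ki-67 antigen of cycling cells, stood at 587, 514 and 396 CPM at E16 and 7.2, 6.77 and 5.62 CPM at P80 (chr7:135689784-135716361, minus strand, GRCm38). It was 76.5-fold lower in the adult (log2 -6.26 ± 0.24, adjusted p = 2.08e-07). Top2a, the topoisomerase that separates sister chromatids, stood at 277, 265 and 218 CPM at E16 and 6.08, 5.67 and 2.16 CPM at P80 (log2 -5.79 ± 0.37, adjusted p = 1.89e-06). Kif11, the motor that builds the bipolar spindle, stood at 73.2, 72 and 75.8 CPM at E16 and 2.59, 0.553 and 2.39 CPM at P80 (log2 -5.23 ± 0.42). Cdk1, the kinase that starts mitosis, stood at 18.3, 23.8 and 32.3 CPM at E16 and had no count in any P80 library, at least 285-fold lower. Bub1 and Aurkb, kinases of the spindle checkpoint and of chromosome alignment, had none either, at least 234-fold and 247-fold lower.

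Late cell cycle genes are known for 2 promoter motifs. The cell cycle homology region (CHR, TTTGAA) is bound by the repressor complex that silences late cell cycle genes in resting cells, and the CCAAT box (CCAAT) by NF-Y, an activator of the same genes. In the 250 bases before the annotated start, searched on both strands, CHR letters were found in 8 of 20 windows of mitosis genes (40%, against 16% of 32851 windows of all genes). CCAAT was found in 18 of 20 (90%, against 33.8%). RefSeq windows were at hand for 19 of the 22 genes. The upstream stretches of 3 genes that hold both are given here, 5′ to 3′ on the gene's strand in GRCm38.p6, with matches on either strand in capitals.
Mki67 (chr7:135716460-135716579, minus strand): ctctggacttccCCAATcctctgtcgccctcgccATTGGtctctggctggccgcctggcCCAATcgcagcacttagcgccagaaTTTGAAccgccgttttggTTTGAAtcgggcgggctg
Top2a (chr11:99024195-99024428, minus strand): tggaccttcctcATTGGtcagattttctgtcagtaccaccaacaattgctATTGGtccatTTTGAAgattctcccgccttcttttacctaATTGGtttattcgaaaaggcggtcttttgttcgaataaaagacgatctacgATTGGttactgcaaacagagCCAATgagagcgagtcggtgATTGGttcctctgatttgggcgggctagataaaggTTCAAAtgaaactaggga
Kif11 (chr19:37376325-37376380, plus strand): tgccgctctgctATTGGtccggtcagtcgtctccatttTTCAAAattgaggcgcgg
Mki67 holds 3 CCAAT boxes and 2 CHR matches within 120 bases, and Kif11 holds 1 of each close to its start. Matches of the 2 motifs share no base in these stretches, and a match is a run of letters and not a measured binding site.

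DNA replication genes summed to 1140, 1198 and 1208 CPM at E16 and 242, 217 and 225 CPM at P80, with a median log2 change of -2.37. Mcm2 and Mcm7 encode subunits of the replicative helicase. Mcm2 stood at 81.8, 84.4 and 92.2 CPM at E16 and 12.7, 12.3 and 9.16 CPM at P80 (log2 -2.92 ± 0.22, adjusted p = 4.4e-06) and Mcm7 at 105, 112 and 119.6 CPM at E16 and 13.6, 13.3 and 6.62 CPM at P80 (log2 -3.33 ± 0.29). Rrm2, the cell-cycle-bound subunit of ribonucleotide reductase, stood at 41.8, 49 and 46.6 CPM at E16 and 0.28, 0.691 and 0 CPM at P80 (log2 -7.35 ± 0.63, and -8.22 and -6.70 without P80 replicates 2 and 3). Uhrf1, which carries DNA methylation through replication, stood at 71.5, 87.5 and 70.3 CPM at E16 and 3.21, 1.24 and 1.85 CPM at P80 (log2 -5.13 ± 0.35). Genes of this group are classic targets of the E2F factors. The E2F-like letters TTTCCCGC or TTTGGCGC stood in 5 of 25 windows of these genes (20%, against 1.3% of all windows), with windows at hand for 20 of 26 genes. The 3 with the smallest adjusted p among those that hold them are shown, with the letters in capitals on either strand.
Mcm7 (chr5:138172029-138172060, minus strand): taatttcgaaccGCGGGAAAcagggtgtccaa
Mcm6 (chr1:128359733-128359827, minus strand): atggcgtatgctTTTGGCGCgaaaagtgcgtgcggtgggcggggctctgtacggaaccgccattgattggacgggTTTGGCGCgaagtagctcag
Mcm5 (chr8:75109348-75109379, plus strand): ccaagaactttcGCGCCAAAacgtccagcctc
All 3 encode subunits of the same helicase, and Mcm6 holds 2 matches. Their log2 changes were -3.33 ± 0.29, -1.82 ± 0.18 and -4.93 ± 0.79 in the order printed, and that of Mcm5 was -5.99 without P80 replicate 1 and -4.31 without P80 replicate 3.

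Regulators of the G1 phase did not move as a block. Of 14 tested, 6 fell and 4 rose, with a median log2 change of -0.58. Cyclin D2, encoded by Ccnd2, stood at 400.4, 449 and 334 CPM at E16 and 146, 123 and 110.1 CPM at P80 (log2 -1.64 ± 0.19), whereas cyclin D3, encoded by Ccnd3, stood at 19.4, 24.4 and 29.2 CPM at E16 and 93.4, 65.7 and 84 CPM at P80 (log2 1.74 ± 0.23). Their partner kinase Cdk4 stood at 161, 184 and 291 CPM at E16 and 26.4, 26.7 and 15 CPM at P80 (log2 -3.23 ± 0.31, adjusted p = 2.11e-05). The 2 inhibitors named also parted, with Cdkn1a (p21) rising (log2 3.64 ± 0.54) and Cdkn1b (p27) falling (log2 -1.37 ± 0.19).

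Genes known for high levels in fetal tissue were lower at P80. Of 13 fetal RNA-binding and high-mobility-group genes tested 11 fell and none rose (median -2.96). Igf2bp1, an mRNA-binding protein of the fetal brain, stood at 88, 74.7 and 60.3 CPM at E16 and 0.14, 0 and 0.077 CPM at P80 (log2 -9.60 ± 0.45, and -10.34 without P80 replicate 1). Hmgb2, a chromatin protein of dividing cells, stood at 280.3, 357 and 495 CPM at E16 and 28.6, 46.9 and 34.2 CPM at P80 (log2 -3.37 ± 0.27). Of 19 imprinted genes, expressed from the allele of a single parent and often active in fetal growth, 14 fell and 1 rose. H19, an imprinted noncoding RNA, stood at 220.3, 253 and 248 CPM at E16 and 7.13, 6.5 and 5.62 CPM at P80 (log2 -5.23 ± 0.20, adjusted p = 2.08e-07). Mest, Peg10 and Zdbf2 fell too (log2 -2.88 ± 0.26, -3.73 ± 0.31 and -3.37 ± 0.24). Impact rose (log2 0.91 ± 0.25), a call lost without E16 replicate 2 or 3. Without P80 replicate 3 the number that rose was 2.

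Of 20 chromatin regulators 12 fell and none rose (median -1.33). Ezh2, the histone methyltransferase of the Polycomb complex, stood at 187, 209 and 219.7 CPM at E16 and 9.22, 5.53 and 8.55 CPM at P80 (log2 -4.70 ± 0.24, adjusted p = 5.13e-07). Hdac2, a histone deacetylase, stood at 281, 248 and 326 CPM at E16 and 33.7, 36.8 and 38.3 CPM at P80 (log2 -2.97 ± 0.18), and Smarcc1, a core subunit of the BAF remodeller, at 509, 426 and 365 CPM at E16 and 75.5, 47.7 and 73.8 CPM at P80 (log2 -2.72 ± 0.23). Splicing factors fell in 25 of 30 cases and rose in 3 (median -1.54). Hnrnpa1 stood at 1527, 1427 and 1627 CPM at E16 and 142, 119 and 151 CPM at P80 (log2 -3.48 ± 0.19), and Ptbp2, the splicing repressor of young neurons, at 202, 203 and 203 CPM at E16 and 22.4, 18.7 and 23.5 CPM at P80 (log2 -3.23 ± 0.18). The exceptions named were Mbnl1 and Mbnl2, muscleblind factors that direct the switch from fetal to adult splice forms. Mbnl1 stood at 31.3, 36.5 and 27.8 CPM at E16 and 199.7, 165 and 208 CPM at P80 (log2 2.58 ± 0.19) and Mbnl2 at 20.1, 17.7 and 18.6 CPM at E16 and 135, 137 and 139 CPM at P80 (log2 2.87 ± 0.17, adjusted p = 1.17e-06). Immature neuron genes (14128 to 17466 CPM at E16 and 505 to 602 CPM at P80) and mitosis genes (1611 to 1879 CPM at E16 and 30.6 to 50.8 CPM at P80) fell over the same comparison, and their part in these fetal, chromatin and splicing genes was not tested.

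**Figure D3:**
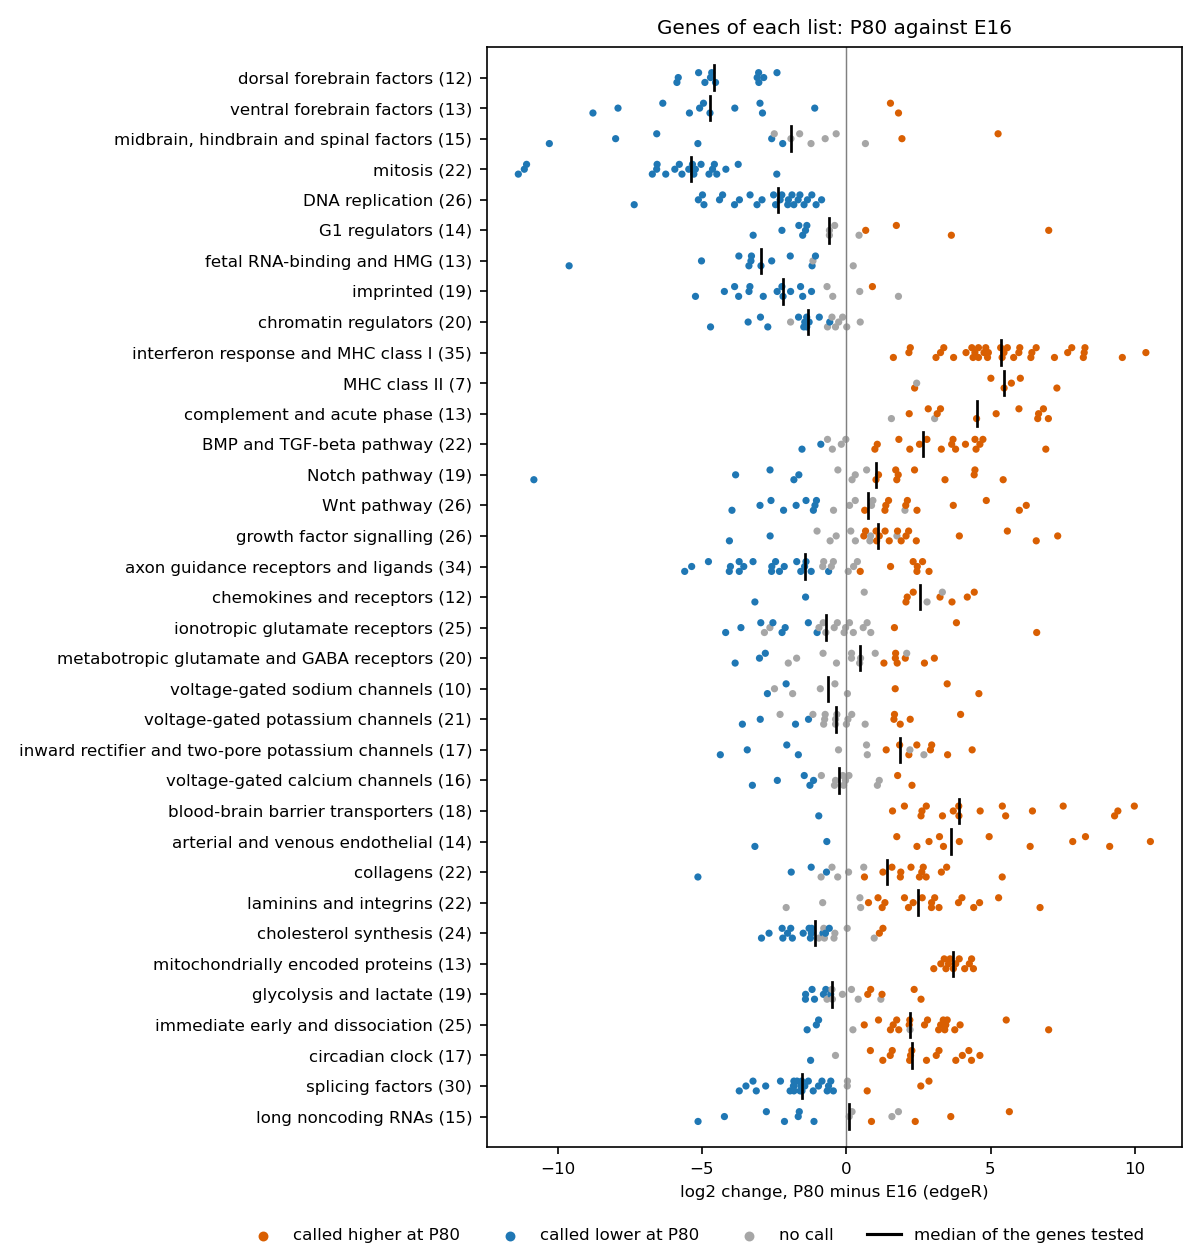
Log2 change (P80 minus E16) of each gene tested in 35 lists outside the marker lists (points, coloured by call, with the number tested after each name) and the median (line). Mitosis and DNA replication genes lie wholly below 0 and interferon and mitochondrially encoded genes wholly above it, while channel lists spread to both sides.

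Genes of the interferon response and of MHC class I antigen presentation rose together. All 35 on the list were higher at P80, where 26.3% of all genes tested were, and the median log2 change was 5.35. Their sum was 109, 106 and 117 CPM at E16 and 2474, 2220.3 and 2101 CPM at P80, with little spread within either age. H2-K1 and H2-D1 encode MHC class I heavy chains. H2-K1 stood at 4.34, 3.24 and 5.07 CPM at E16 and 257, 244 and 207 CPM at P80 (log2 5.80 ± 0.24, adjusted p = 2.25e-07) and H2-D1 at 10.6, 10.2 and 12.6 CPM at E16 and 363, 330 and 302 CPM at P80 (log2 4.90 ± 0.19, adjusted p = 2.08e-07). Gbp3, an interferon-induced GTPase, stood at 0.608, 0.762 and 0.428 CPM at E16 and 145, 121 and 106 CPM at P80 (log2 7.67 ± 0.29, adjusted p = 2.08e-07). Ddx58, the RIG-I sensor of viral RNA, stood at 2.43, 2.54 and 2.26 CPM at E16 and 63.8, 64.4 and 70.5 CPM at P80 (log2 4.77 ± 0.24). Near-identical MHC and Gbp paralogs share reads in these counts, so the share of each gene is uncertain.

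Interferon-induced promoters often carry an interferon-stimulated response element (ISRE), which the factors of the IRF family bind. ISRE-like letters, GAAANNGAA on either strand, stood in 14 of 32 windows of these genes (43.8%), against 7.13% of all windows, with windows at hand for 27 of 35 genes. The stretches of the 3 called genes with the smallest adjusted p that hold the letters are shown, with matches in capitals.
Gbp3 (chr3:142559988-142560026, plus strand): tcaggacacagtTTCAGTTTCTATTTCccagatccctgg
B2m (chr2:122147536-122147568, plus strand): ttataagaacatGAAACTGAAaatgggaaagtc
Gbp2 (chr3:142620593-142620625, plus strand): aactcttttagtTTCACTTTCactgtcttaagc
The run of capitals in Gbp3 is a pair of overlapping matches. B2m, the light chain of MHC class I, stood at 7.45, 9.21 and 13 CPM at E16 and 235, 260.3 and 219 CPM at P80 (log2 4.58 ± 0.25), and Gbp2 at 0.38, 0 and 0.306 CPM at E16 and 64, 55 and 37.7 CPM at P80 (log2 7.82 ± 0.61, and 7.19 without E16 replicate 2). The E16 levels of both Gbp genes were under 1 CPM, and Mcm5, Mcm6, B2m and Gbp2 are named for these windows.

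**Figure D4:**
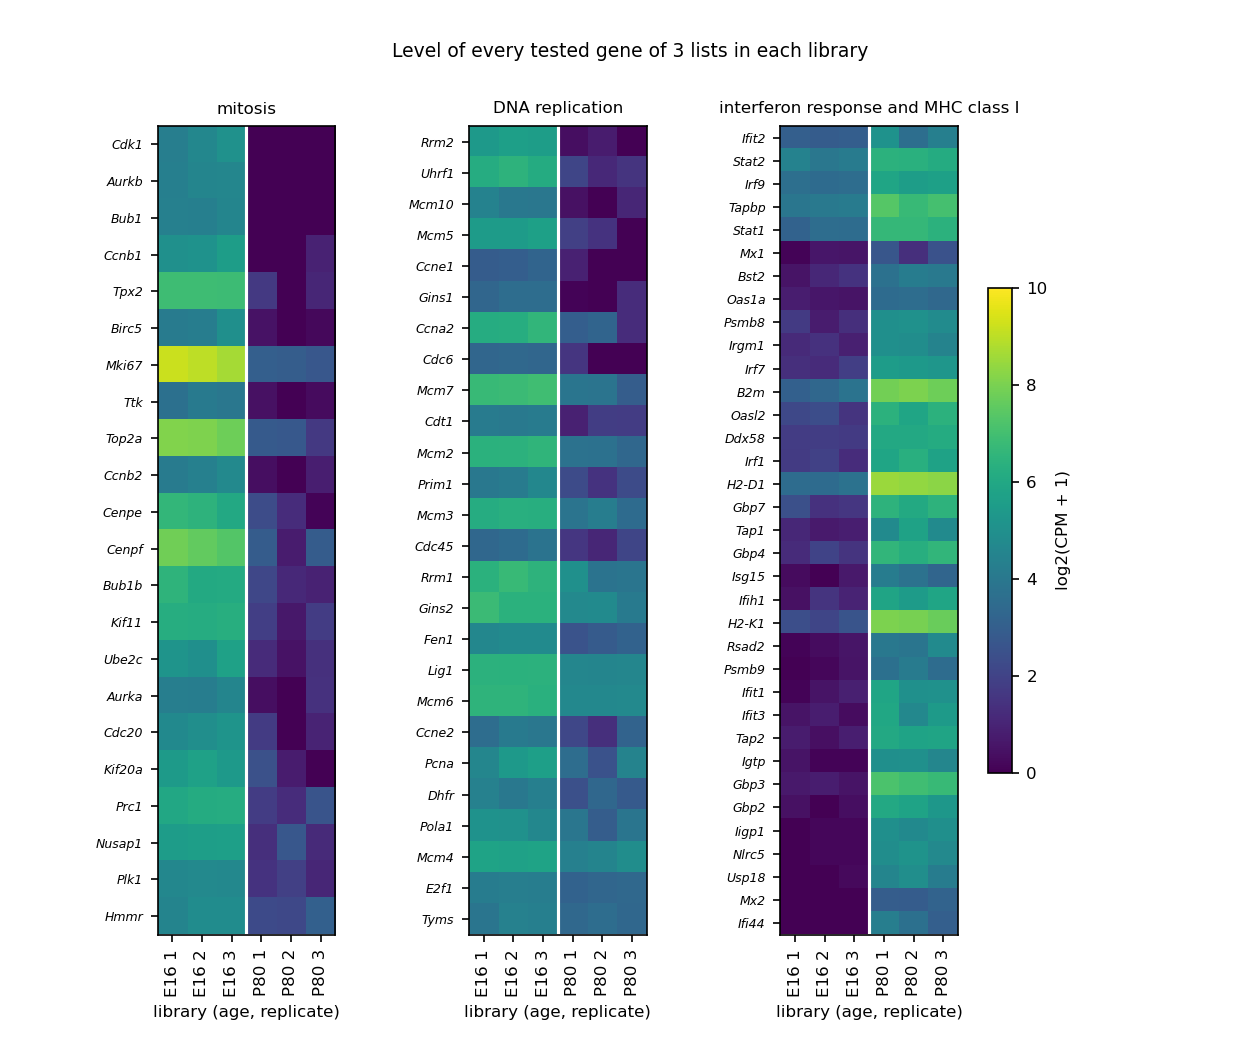
Level of every tested gene of the mitosis, DNA replication and interferon lists in each library, as log2(CPM + 1) with a pseudocount of 1 (colour). The 3 E16 columns and the 3 P80 columns differ in every row, in opposite directions for the cell division genes and the interferon genes.

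MHC class II genes, which present antigen in microglia, macrophages and other immune cells, rose in 6 of 7 cases. Cd74, the invariant chain, stood at 0.456, 1.08 and 0.856 CPM at E16 and 23.3, 51.2 and 86.1 CPM at P80 (log2 6.03 ± 0.57, adjusted p = 2e-05). Their sum was 2.74, 5.02 and 3.12 CPM at E16 and 60.9, 98.3 and 181 CPM at P80, lowest in P80 replicate 1 and highest in replicate 3. The median log2 change was 5.47, and between 4.84 and 6.17 when E16 replicate 2 or 3 or P80 replicate 3 was left out. Complement and acute phase genes rose in 11 of 13 cases (median 4.52, or 5.29 without E16 replicate 3). Clu, the chaperone clusterin, stood at 15.4, 12.3 and 17.5 CPM at E16 and 662, 469.8 and 524 CPM at P80 (log2 5.19 ± 0.24). Apoe, the main lipid carrier of the brain, stood at 163, 195 and 254 CPM at E16 and 1200.3, 1633 and 1549.7 CPM at P80 (log2 2.84 ± 0.23, adjusted p = 7.78e-06). Of 12 chemokine and chemokine receptor genes 7 rose and 2 fell. Cxcl12, a chemokine of meninges and vessels that guides OPCs and neurons, stood at 21.2, 24.9 and 25 CPM at E16 and 465, 536 and 540 CPM at P80 (log2 4.44 ± 0.18, adjusted p = 2.25e-07). Its receptor Cxcr4 stood at 9.36, 10.2 and 10.8 CPM at E16 and 3.56, 3.73 and 4.08 CPM at P80 and fell (log2 -1.41 ± 0.38), while Ackr3, the scavenging receptor of the same ligand, rose (log2 2.07 ± 0.30). Endothelial, astrocyte and microglial genes rose over the same comparison, and their part in these immune genes was not tested.

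Signalling pathways were described from ligands to targets. Of 22 BMP and TGF-beta genes 16 rose and 2 fell, with a median log2 change of 2.67. The receptors Acvrl1 and Tgfbr2 stood at 2.97, 4.13 and 1.65 CPM at E16 and 359.8, 387 and 310 CPM at P80 and at 7.53, 13.6 and 7.4 CPM at E16 and 271, 230.1 and 261 CPM at P80 (log2 6.92 ± 0.34 and 4.74 ± 0.28). Acvrl1 is best known from endothelial cells. The inhibitory Smads, Smad6 and Smad7, rose by 4.50 ± 0.22 and 3.30 ± 0.21. The members that fell were Id2 and Id4, targets of BMP signalling that keep OPCs from differentiating. Id4 stood at 136, 123 and 139 CPM at E16 and 46.4, 44 and 47.1 CPM at P80 (log2 -1.53 ± 0.16, adjusted p = 3.59e-05) and Id2 at 50.7, 53.8 and 59.5 CPM at E16 and 36, 23.6 and 29.2 CPM at P80 (log2 -0.88 ± 0.22).

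Notch pathway genes parted by member, with 10 of 19 higher and 5 lower. The ligands Jag1 and Jag2 stood at 17.5, 16.6 and 14.6 CPM at E16 and 210.1, 168 and 144 CPM at P80 and at 11.2, 15.4 and 12.5 CPM at E16 and 309.7, 285 and 267 CPM at P80 (log2 3.42 ± 0.21 and 4.46 ± 0.20). Notch4, the receptor of endothelial cells, stood at 5.25, 9.02 and 3.85 CPM at E16 and 234, 305 and 248 CPM at P80 (log2 5.44 ± 0.33, adjusted p = 1.39e-06). Dll3, a ligand of newborn neurons, had no count at P80 and stood at 16.1, 16.7 and 18.3 CPM at E16, at least 196-fold lower in the adult. The target Hes5 fell, as given above.

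Wnt pathway genes were also divided, with 11 of 26 higher and 9 lower. The ligand Wnt7b, which acts on brain vessels and on progenitors, stood at 88.4, 84.8 and 91.4 CPM at E16 and 3.63, 8.57 and 5.16 CPM at P80 (log2 -3.96 ± 0.32). Among receptors, Fzd4, the norrin receptor of vessels, stood at 1.9, 2.03 and 2.93 CPM at E16 and 142, 147 and 154 CPM at P80 (log2 6.00 ± 0.24, adjusted p = 2.23e-07), while Fzd3, a receptor of growing axons, stood at 333, 245 and 235 CPM at E16 and 44.7, 25.4 and 31.8 CPM at P80 (log2 -2.99 ± 0.25). Lef1, a transcription factor that carries the Wnt signal and is active in brain endothelium, stood at 49.9, 44.5 and 45.4 CPM at E16 and 249.6, 277 and 238 CPM at P80 (log2 2.45 ± 0.16). Endothelial genes rose and immature neuron genes fell over the same comparison, and their part in the Notch and Wnt genes was not tested.

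Growth factor genes rose in 16 of 26 cases and fell in 2 (median 1.1). Pdgfb and Pdgfd, ligands of the Pdgf family, stood at 1.52, 1.46 and 1.47 CPM at E16 and 149, 152 and 128 CPM at P80 and at 0.456, 0.381 and 0.245 CPM at E16 and 66.9, 61.7 and 47.4 CPM at P80 (log2 6.58 ± 0.22 and 7.33 ± 0.36, adjusted p = 1.71e-07 and 4.47e-07). Pdgfb is made by endothelial cells and recruits pericytes. Erbb4, a neuregulin receptor, stood at 61.3, 42.4 and 39.1 CPM at E16 and 8.53, 9.68 and 4.85 CPM at P80 (log2 -2.64 ± 0.33), and its ligand Nrg1 fell too (log2 -4.05 ± 0.75, or -5.57 without P80 replicate 1).

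Axon guidance genes fell in 20 of 34 cases and rose in 7, with a median log2 change of -1.42. Robo2, a Slit receptor, stood at 425, 311 and 288 CPM at E16 and 18.2, 9.54 and 9.24 CPM at P80 (log2 -4.78 ± 0.32, adjusted p = 2.53e-06). Unc5d, a receptor of the netrin receptor family in migrating cortical neurons, stood at 110.2, 96.6 and 87 CPM at E16 and 3.42, 1.38 and 2.08 CPM at P80 (log2 -5.36 ± 0.33), and Ephb2, an ephrin receptor, at 300.1, 229 and 191 CPM at E16 and 12.4, 15.9 and 16.4 CPM at P80 (log2 -4.01 ± 0.24). The members that rose included Plxnd1, a semaphorin receptor of vessels, at 46.9, 40.3 and 37.7 CPM at E16 and 284, 246 and 249.9 CPM at P80 (log2 2.64 ± 0.17), and Ephb4, the ephrin receptor of veins, at 17.6, 21.9 and 14.8 CPM at E16 and 155, 118 and 124 CPM at P80 (log2 2.87 ± 0.22).

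Ion channels and neurotransmitter receptors, which OPCs carry and which shape their response to neuronal activity, changed in both directions. Over all genes tested, 26.3% were higher and 24.5% lower. The counts of voltage-gated potassium and sodium channel genes given below lie near those shares. Falls among ionotropic glutamate receptor and voltage-gated calcium channel genes lie not far above the share called lower. Among the adult libraries, mature neuron genes and several channels were lowest in P80 replicate 3, while Scn3a was highest there and Gabra2 was intermediate. Neurons carry many of these channels, and their part in these levels was not tested. Of 25 ionotropic glutamate receptor genes and their auxiliary subunits, 8 fell and 3 rose, and 5 fell with all 13 libraries in the fit (median -0.71). Gria2, the subunit that makes AMPA receptors impermeable to calcium, stood at 172, 206 and 158 CPM at E16 and 93.2, 124 and 49.3 CPM at P80 and fell (log2 -1.01 ± 0.30, adjusted p = 0.017), a call lost with all 13 libraries and without E16 replicate 2. NMDA receptor subunits parted. Grin2b, the subunit that prevails in neurons before birth, stood at 187, 162 and 129.8 CPM at E16 and 65.2, 38.3 and 6.85 CPM at P80 (log2 -2.12 ± 0.59, adjusted p = 0.014). Its call was lost without the low-count filter, with all 13 libraries and without P80 replicate 2, and without P80 replicate 1 its log2 change was -2.89. Grin2a, the subunit that joins it after birth, stood at 2.66, 1.72 and 2.26 CPM at E16 and 43, 42.6 and 8.39 CPM at P80 (log2 3.82 ± 0.60, adjusted p = 0.000571), with P80 replicate 3 lowest. Grin2c stood at 0.456, 0.762 and 1.1 CPM at E16 and 54.5, 116 and 61 CPM at P80 (log2 6.60 ± 0.45, adjusted p = 2.71e-06), and all 3 adult libraries lay far above the embryonic ones. Among auxiliary subunits, Cnih2 of AMPA receptors stood at 54.8, 47.3 and 85.6 CPM at E16 and 3.56, 4.01 and 2.85 CPM at P80 (log2 -4.18 ± 0.32), and Neto2 of kainate receptors at 72, 70.4 and 70.1 CPM at E16 and 4.05, 9.82 and 3.54 CPM at P80 (log2 -3.65 ± 0.38).

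Of 20 metabotropic glutamate and GABA receptor genes 7 rose and 3 fell. The number that rose was 3 without E16 replicate 3 and 4 with all 13 libraries, and the number that fell was 5 without P80 replicate 1. Gabra2, a GABA-A subunit, stood at 17.2, 22.4 and 16.1 CPM at E16 and 55.2, 201 and 109 CPM at P80 (log2 2.71 ± 0.41, and 2.12 without P80 replicate 2). Gabbr1, of the metabotropic GABA-B receptor, stood at 169.8, 161 and 164 CPM at E16 and 112, 159.6 and 119.6 CPM at P80 and had no call (adjusted p = 0.14), but was called lower in limma-voom and without P80 replicate 2 (log2 -0.52).

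Of 10 voltage-gated sodium channel genes 3 rose and 2 fell, and 4 fell without P80 replicate 1. Scn3a, the pore-forming subunit of the embryonic brain, stood at 62.4, 51.5 and 56 CPM at E16 and 8.67, 5.12 and 11.5 CPM at P80 (log2 -2.73 ± 0.31, adjusted p = 6.42e-05). Scn8a, a pore-forming subunit of nodes of Ranvier, stood at 75.3, 61.8 and 45.7 CPM at E16 and 79.1, 79.2 and 29.8 CPM at P80 with overlapping ages and no call (adjusted p = 0.934). Scn4b, a beta subunit, rose by 4.60 ± 0.76, or by 5.22 without E16 replicate 1. Of 21 voltage-gated potassium channel genes 5 rose and 4 fell, and 2 or 3 rose when any single E16 replicate or P80 replicate 2 was left out. Kcna2, a delayed rectifier, stood at 15.5, 14.7 and 8.19 CPM at E16 and 34.2, 53.8 and 32.8 CPM at P80 (log2 1.65 ± 0.33). Kcnq3, a subunit of the M-current, stood at 133, 114 and 94.5 CPM at E16 and 17.4, 8.02 and 2.46 CPM at P80 (log2 -3.60 ± 0.55, and -4.54 without P80 replicate 1). The inward rectifier and two-pore channel genes rose in 8 of 17 cases and fell in 4. Kcnj10 encodes Kir4.1, the channel that sets the resting potential of OPCs and astrocytes. It stood at 21.2, 17 and 20.1 CPM at E16 and 54, 51.4 and 46.9 CPM at P80 and rose (log2 1.38 ± 0.21, adjusted p = 0.000472), with little spread at either age. Kcnk10, a two-pore channel, stood at 46.6, 37.2 and 32.2 CPM at E16 and 0.699, 3.18 and 2 CPM at P80 (log2 -4.36 ± 0.49). Of 16 voltage-gated calcium channel genes 5 fell and 2 rose. Cacna1a, the P/Q-type pore, stood at 45.7, 40.2 and 40.1 CPM at E16 and 162, 199 and 72.4 CPM at P80 (log2 1.78 ± 0.32), while the auxiliary subunit Cacna2d1 stood at 87.8, 73.2 and 71.6 CPM at E16 and 17.6, 18.5 and 8.47 CPM at P80 (log2 -2.39 ± 0.30).

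**Figure D5:**
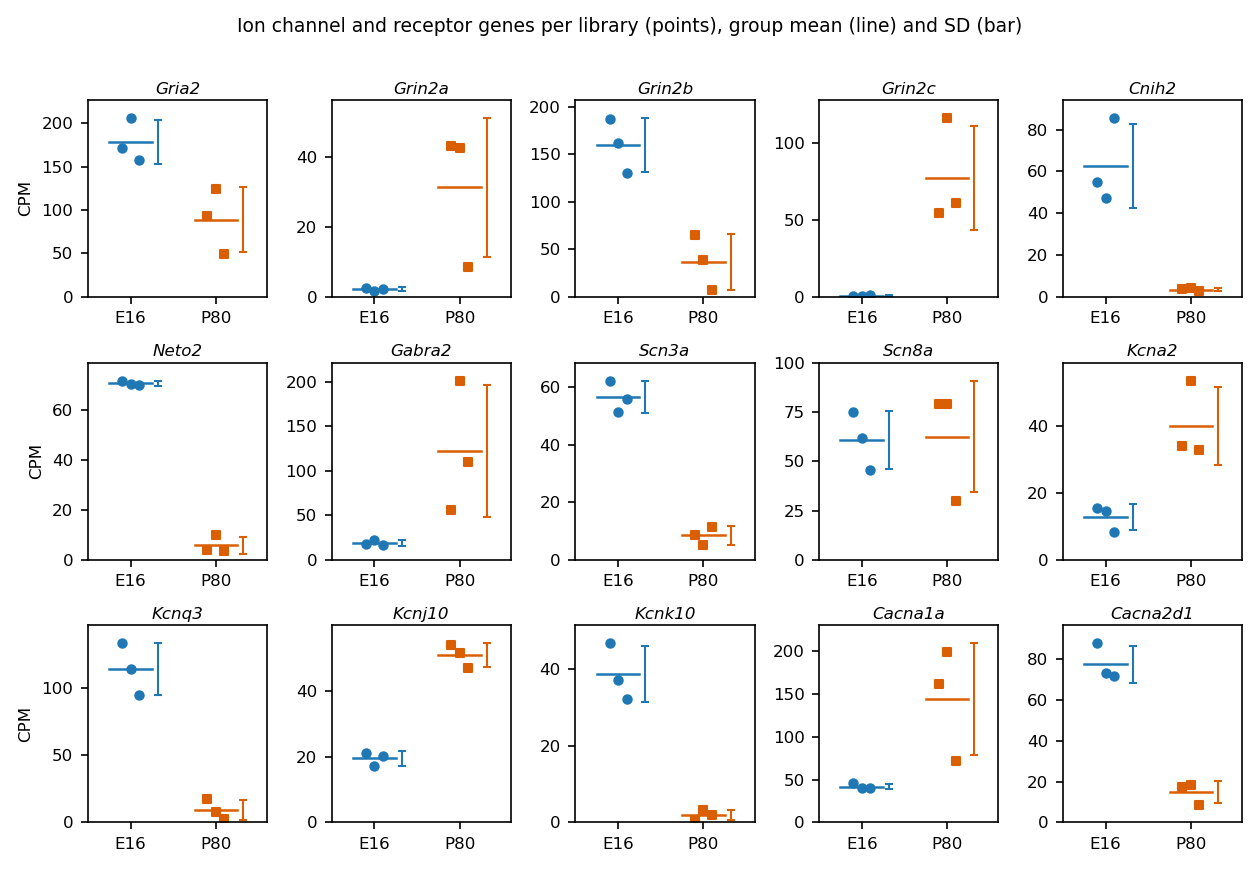
CPM of 15 ion channel and receptor genes in each library (points; linear axes from 0, a different scale for each gene), with the mean (line) and SD (bar) of the 3 libraries of each age. Grin2b and Grin2c move in opposite directions, Scn8a overlaps between the ages, and P80 replicate 3 is lowest of the adult libraries for Grin2a, Grin2b and Kcnq3.

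Genes of the endothelial list and other vessel genes rose. From that list, Flt1, a VEGF receptor, stood at 5.25, 5.78 and 3.97 CPM at E16 and 2426, 2917 and 2331 CPM at P80 (log2 9 ± 0.29, adjusted p = 1.35e-07), Cldn5, the tight junction claudin, at 2.51, 1.4 and 2.57 CPM at E16 and 524, 495 and 412 CPM at P80 (log2 7.79 ± 0.29), and Pecam1, known as CD31, at 4.49, 5.97 and 5.2 CPM at E16 and 593, 684 and 461 CPM at P80 (log2 6.79 ± 0.25). Of 18 transporters of the blood-brain barrier 17 rose and 1 fell (median 3.90). Abcb1a, the efflux pump P-glycoprotein, stood at 1.45, 1.91 and 0.611 CPM at E16 and 913, 799 and 786 CPM at P80 (log2 9.30 ± 0.38, adjusted p = 2.25e-07). Slc2a1, the glucose transporter GLUT1, stood at 30.7, 22.4 and 21.5 CPM at E16 and 1156, 1344 and 929 CPM at P80 (log2 5.52 ± 0.25), and Slco1a4, an organic anion carrier, at 1.06, 1.14 and 0.306 CPM at E16 and 557, 582 and 568 CPM at P80 (log2 9.41 ± 0.38). Lrp8, the reelin receptor of neurons, was the member that fell (log2 -0.95 ± 0.20). Of 14 arterial and venous genes 12 rose. Sema3g, an arterial semaphorin, stood at 1.67, 1.27 and 1.34 CPM at E16 and 365, 354 and 270.5 CPM at P80 (log2 7.85 ± 0.25, adjusted p = 1.35e-07). The 2 that fell were Nr2f2, a venous factor that newborn interneurons also express (log2 -0.67 ± 0.18), and Ackr1, a chemokine receptor of venules and red cells. The latter stood at 7.91, 5.53 and 8.5 CPM at E16 and 2.03, 0.277 and 0 CPM at P80 (log2 -3.17 ± 1.04, adjusted p = 0.0284), and its call was lost when any single E16 replicate or P80 replicate 2 was left out. Its log2 change was -6.00 without P80 replicate 1 and -2.56 without P80 replicate 3.

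Matrix genes followed. Of 22 laminin and integrin genes 18 rose and none fell (median 2.48), although 1 fell without P80 replicate 1 or 3. Of 22 collagen genes 13 rose and 4 fell (median 1.43). Lama5 and Lamb2, basement membrane laminins, stood at 17.6, 14.9 and 14.8 CPM at E16 and 360.2, 406 and 396 CPM at P80 and at 41.4, 44.2 and 26.8 CPM at E16 and 626, 603 and 580.3 CPM at P80 (log2 4.62 ± 0.18 and 4.01 ± 0.23, adjusted p = 2.08e-07 and 9.8e-07). Col4a2, the basement membrane collagen, stood at 146, 204 and 98.6 CPM at E16 and 485, 620.1 and 540.1 CPM at P80 (log2 1.87 ± 0.26). Col2a1, the cartilage collagen, fell from 52, 90.1 and 226 CPM to 3.84, 0.138 and 5.77 CPM (log2 -5.14 ± 0.80), with E16 replicate 3 highest. Its change was -4.40 without E16 replicate 3 and -5.74 without P80 replicate 3, and its call was lost in limma-voom.

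Of 24 cholesterol synthesis genes 15 fell and 2 rose (median -1.08). Cholesterol is a main lipid of myelin, and its synthesis in glia is needed for the sheath. Fdft1, which makes squalene, stood at 153, 127 and 182 CPM at E16 and 31.8, 14.7 and 25.4 CPM at P80 (log2 -2.68 ± 0.28, adjusted p = 4.51e-05). Stard4, a cholesterol transfer protein, was among those that rose, at 14.3, 19.4 and 22.3 CPM at E16 and 44.5, 45.1 and 34.7 CPM at P80 (log2 1.15 ± 0.26, adjusted p = 0.00423).

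All 13 protein genes of the mitochondrial genome rose, with sums of 2504, 5901 and 3508 CPM at E16 and 27219, 77578 and 60554 CPM at P80. Among them mt-Nd5, a subunit of complex I, stood at 211, 538 and 342 CPM at E16 and 3348, 10694 and 9125 CPM at P80 (log2 4.41 ± 0.51, adjusted p = 7.74e-05). Glycolysis genes had calls in both directions, with 7 of 19 lower and 5 higher. Among all genes tested 24.5% were lower and 26.3% higher, and the count of glycolysis genes that rose lies near that share. Pkm and Gapdh fell (log2 -1.10 ± 0.16 and -1.41 ± 0.18), while Pfkp, a phosphofructokinase, rose at 14, 26.2 and 17.8 CPM at E16 and 102, 109 and 85.5 CPM at P80 (log2 2.35 ± 0.26). Immediate early and dissociation genes, which tissue digestion can induce, rose in 20 of 25 cases and fell in 3 (median 2.21, and 2.86 without E16 replicate 3). Klf2 and Klf4, which endothelial cells also hold at rest, stood at 3.04, 3.69 and 5.32 CPM at E16 and 574, 626 and 369 CPM at P80 and at 7.76, 9.72 and 8.92 CPM at E16 and 436, 469 and 329.6 CPM at P80 (log2 7.01 ± 0.33 and 5.54 ± 0.22). The stress phosphatase Dusp1 stood at 28.5, 23.8 and 31.1 CPM at E16 and 201, 201 and 185 CPM at P80 (log2 2.82 ± 0.18), while the chaperone Hsp90aa1 fell (log2 -1.04 ± 0.16). The part of the dissociation in these changes was not tested.

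Circadian clock genes rose in 15 of 17 cases and fell in 1 (median 2.27). Per3, a repressor of the clock, stood at 4.64, 3.43 and 5.62 CPM at E16 and 99.7, 89.5 and 71.8 CPM at P80 (log2 4.25 ± 0.27, adjusted p = 1.79e-06), and Dbp, an output factor, at 5.1, 7.18 and 5.87 CPM at E16 and 138, 78.8 and 78.5 CPM at P80 (log2 4.02 ± 0.30). Nfil3, the repressor that opposes Dbp at the same sites, stood at 17, 17.9 and 19.1 CPM at E16 and 5.38, 8.71 and 8.93 CPM at P80 and fell (log2 -1.24 ± 0.33, adjusted p = 0.0113). The labels used here give no time of day for the sorts.

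Of 15 long noncoding RNAs listed and tested, 7 fell and 4 rose. Malat1, a nuclear RNA, stood at 3157, 4605 and 2467 CPM at E16 and 16974, 17793 and 18878 CPM at P80 (log2 2.39 ± 0.29), and Neat1, the scaffold of paraspeckles, at 4.03, 11.3 and 6.48 CPM at E16 and 279.8, 430.1 and 394 CPM at P80 (log2 5.65 ± 0.39, adjusted p = 2.77e-06). Sox2ot, which overlaps the Sox2 gene, fell (log2 -2.77 ± 0.28), and Pantr1, beside the Pou3f3 gene, fell from 45.1, 50.5 and 82.3 CPM to 4.19, 1.38 and 3.62 CPM. Over all long noncoding genes tested, 571 of 2525 rose and 286 fell, while among coding genes 4190 of 15267 rose and 4106 fell.

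The largest rises and falls among abundant coding genes were genes with no or nearly no count at 1 of the ages. Gkn3, an arterial secreted protein, stood at 0.0761, 0.0635 and 0 CPM at E16 and 104, 87.1 and 49 CPM at P80, and Ly6c1, a surface protein of brain endothelium, at 0.152, 0 and 0.0611 CPM at E16 and 164, 244 and 138 CPM at P80 (log2 11.22 ± 0.49, 12.10 without E16 replicate 1 and 10.64 without E16 replicate 2). Slc47a1, a transporter of meningeal fibroblasts, had no count at E16 and stood at 119, 26.8 and 131 CPM at P80, at least 1394-fold higher. Tgtp2, an interferon-induced GTPase, stood at 47.2, 29.4 and 37.5 CPM at P80, and Agt, angiotensinogen of astrocytes, at 11.7, 18.4 and 15 CPM, at least 574-fold and 227-fold higher. Itih3, Odf3b, Cdhr3 and Apol10b were likewise without a count at E16, at least 452-fold, 414-fold, 239-fold and 239-fold higher. The largest falls included Hba-x, Cdk1, Bub1, Aurkb, Nhlh1, Dll3, Sox14 and Neurog2, all given above, and Troap, a spindle protein, at least 136-fold lower. The coding genes with the highest CPM per kb at E16 outside the mitochondrial genome were the alpha globins, Tuba1a, Gm49450 and Eef1a1. Tuba1a, a tubulin of growing neurons, held 1302 CPM per kb at E16 and 71.1 at P80. Gm49450 overlaps Tuba1a, so that its reads cannot be told from those of Tuba1a. At P80 Ttr, Bsg and Apoe stood beside the globins. Bsg, the surface protein basigin of barrier endothelium, held 79.1 CPM per kb at E16 and 948 at P80.

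Sex-linked genes differed between the ages as well. Ddx3y, a gene of the Y chromosome, stood at 21.7, 11.8 and 19.6 CPM at E16 and Eif2s3y at 8.21, 7.31 and 8.56 CPM, and neither had a count at P80, at least 204-fold and 92.4-fold lower. Xist, the RNA of the inactive X chromosome, stood at 159, 305.6 and 146 CPM at E16 and 646, 727 and 895 CPM at P80 (log2 1.89 ± 0.29, adjusted p = 0.000492), a call lost with all 13 libraries in the fit. The other Y-linked genes examined, Uty and Kdm5d, were chosen after their values were seen and had counts in every library of both ages. Uty stood at 14, 20.5 and 11.6 CPM at E16 and 31.9, 95.3 and 48.7 CPM at P80 and was higher at P80 (log2 1.93 ± 0.40, adjusted p = 0.00301), whereas Kdm5d stood at 34.4, 19.4 and 21.5 CPM at E16 and 8.67, 7.47 and 8.01 CPM at P80 and was lower (log2 -1.64 ± 0.32, adjusted p = 0.00221). These Y-linked genes thus did not move together. All 4 have close relatives on the X chromosome, and reads mapping to several places were counted for each gene. The source of the Uty and Kdm5d reads, present at both ages, is therefore uncertain. Ddx3y and Eif2s3y were counted in every E16 library and in no P80 library. The labels give no sex. A difference in sex make-up between the ages was not tested and cannot be told apart from age here.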

How the data were processed

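Counts per gene were deposited for each library and, per the file headers, came from featureCounts 1.5.0-p1, summed over the exons of Ensembl GRCm38 release 92. The headers show that reads overlapping several genes and reads mapping to several places were counted for each, given at least 10 overlapping bases, and that strand was not used, although the library kit keeps it. Paralogs and overlapping or antisense genes therefore share reads. Trim Galore and TopHat2 2.1.1 are named in the submitters' processing notes. The 6 deposited count files held the same 37785 genes.

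Genes were kept with filterByExpr by age, scaled by TMM and tested between the 3 P80 and the 3 E16 libraries with edgeR 4.0.16 (robust quasi-likelihood F test, two-sided) under R 4.3.3, with Benjamini-Hochberg adjustment over 18464 genes and a threshold of 0.05. The procedure was also run on simulated counts in which far fewer genes changed than were called here. That run does not show how the scaling behaves when so large a share of genes changes. CPM use TMM-scaled libraries. Summaries used Python 3.11.15, pandas 2.3.3 and matplotlib 3.10.9. The alternatives were RLE size factors, no or a stricter low-count filter (1 CPM in 3 libraries), limma-voom with quality weights (limma 3.58.1), DESeq2 1.42.0, all 13 libraries, a replicate block, counts without mitochondrial and globin genes, and leaving out each library.

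The comparison, the 49 gene lists and the rule for named genes were chosen with earlier results of these data known. The rule names the 10 largest called rises and falls of coding genes that reach 10 CPM on average and do not overlap between ages, up to 4 genes of each list by adjusted p and 2 against its direction, the 5 coding genes highest per kb at each age, the 5 largest long noncoding changes, the 6 OPC genes highest per kb, the 2 channel genes of each list highest at each age, and a fixed set of lineage, cell type and sex-linked genes. Not every gene the rule allows is described, and some are not reported here. Lists were described by counts and medians with no test. Promoter windows are from RefSeq (GRCm38.p6), and up to 3 called genes per list with the smallest adjusted p among those holding the motifs were printed.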

Additional observations from a re-analysis of the deposited data

How the results depend on the processing

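Of 18464 genes tested, 4862 were called higher and 4526 lower at P80. The other settings gave 4742 and 4680 with RLE size factors, 4680 and 4712 with no low-count filter, 4841 and 4442 with the stricter filter, 5354 and 5058 with DESeq2, 5224 and 4977 with limma-voom, 4827 and 4336 over all 13 libraries, 4750 and 4678 without mitochondrial and globin genes, and 3985 to 5038 and 3656 to 4736 on leaving out each library. Between 7518 and 9271 of the called genes kept their call, and none was called in the opposite direction in these settings. Of the 267 called genes among those the rule names, 17 lost the call in at least 1 setting and none turned direction.

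The direction turned for a few values near 0, and the cause was not tested. Scn8a, at 0.040 (log2), took -0.046 with no low-count filter, -0.024 with DESeq2, -0.045 with limma-voom, -0.035 over all 13 libraries, -0.059 with the replicate block and -0.20 to 0.37 on leaving out each library. The median of the long noncoding RNA list, 0.10, took -0.14 with limma-voom, -0.40 with the replicate block and -0.88 to 0.057 on leaving out each library. On leaving out each library, the metabotropic glutamate and GABA receptor median (0.48) ranged from -0.085 to 0.94, the voltage-gated potassium channel median (-0.37) from -0.89 to 0.10, Cacna1e (-0.37) from -0.65 to 0.000428, Olig2 (-0.32) from -0.80 to 0.13, Pdgfra (0.25) from -0.11 to 0.57 and Vim (0.18) from -0.013 to 0.30; Olig2, Pdgfra and Cacna1e turned without P80 replicate 3.

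With the replicate block, 4468 genes were higher and 4389 lower. The number of erythroid genes that fell went from 3 to 7 with the block, under which Hba-a1 was called lower (-1.61, adjusted p = 0.00265 with edgeR), and 1 myelin gene fell where none had. Same-numbered libraries correlated at 0.138, 0.0718 and 0.0419 in their deviations from the age means. Each library correlated best with its own number, but the correlations are low and not independent of each other. They do not settle whether the numbers stand for a pairing, and the labels name none. P80 replicate 2, at 8809017 counts, limits precision for genes of low level, and the fitted change of a gene at 0 in all libraries of an age depends on the tool.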

Other observations

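The long noncoding RNAs with the largest called changes were present at 1 age and near 0 at the other. Gm48283, an intergenic transcript on chromosome 14, was at 23.96, 23.0 and 27.0 CPM at E16 and had 0 counts in each P80 library, at least 284-fold lower against a floor of 3 counts over the group. Gm33460, annotated as antisense on chromosome 9, was at 12.3, 10.8 and 12.5 CPM at E16 and also had 0 counts at P80, at least 137-fold lower. In the other direction, Gm15587 was at 0.152, 1.08 and 0.489 CPM at E16 and at 132.9, 185.7 and 123.5 CPM at P80 (log2 difference 7.94 ± 0.46 (SE), adjusted p = 1.16e-06 with edgeR). Slfn5os rose from 0.0761, 0.0635 and 0.122 CPM to 38.0, 54.3 and 47.0 CPM (8.89 ± 0.42, adjusted p = 3.94e-07 with edgeR). Gm20663 had 0 counts at E16 and 11.6, 14.4 and 9.08 CPM at P80, at least 176-fold higher. The ages do not overlap for any of these 5 genes, which the rule chose for the size of their change. All but Gm48283 are annotated as antisense, and since strand was not used in counting, their reads cannot be told apart from those of a gene on the other strand.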
